A study of Mus musculus with 36 samples.

Results

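The 58 genes examined here run or restrain the cell cycle, and their transcripts were followed in C2C12 myotubes with and without knockdown of the long non-coding RNA Tug1. They were chosen by name, from cyclins and replication factors to the inhibitors that hold cells out of cycle, and each had to reach at least 1 CPM (a share of the library's counts) in at least 12 of the 36 libraries. All 58 did so and entered the test among 13995 genes in all, from a table of 55416. In 57 of them every library reached 1 CPM, and Cdkn1c did so in 30.

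C2C12 is a mouse myoblast line that stops dividing and fuses into multinucleate myotubes when serum is withdrawn. On day 3 of differentiation all wells received an antisense locked nucleic acid (LNA), either a negative control (control) or one against Tug1 (Tug1 KD), and the experiment followed 24 h later, on day 4. Wells were left at Rest with unconnected electrodes in the medium, or underwent electrical pulse stimulation (EPS), an exercise-like stimulus, for 3 h, with harvest either at once (EPS 0h) or 3 h later (EPS 3h). Each of the 6 groups holds 6 libraries of poly-A RNA, 36 in all, with 17005079 to 24181167 counts on genes each. According to the study's methods a group is made of triplicate wells from each of a pair of experiments on this cell line. The labels do not name the experiment, and replicates 1 to 3 and 4 to 6 are given apart below as sets.

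Entry into the cycle is driven by D-type and E-type cyclins, which free the E2F factors from the retinoblastoma protein. E2F targets load and fire replication origins and supply nucleotides, and a later wave led by B-Myb and Foxm1 builds the spindle and drives mitosis. Muscle cells leave the cycle before they fuse, through the inhibitors p21, p27, p57 and p18 and the retinoblastoma protein, while unfused reserve cells and stray myoblasts in the same dish can still divide. In RNA from whole wells, fewer cells of a kind and less RNA per cell cannot be told apart.

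The cultures carried the myotube label's markers at high levels. The summed level of 15 myotube genes, such as Acta1 (skeletal actin), Myh3 (embryonic myosin) and Mymk (myomaker), ranged from 14361 to 21518 RPM (reads scaled to library size with TMM factors) over all groups, with only Tnnc2 below the filter. The 9 markers of myoblasts and reserve cells summed to 244 to 335 RPM at Rest in control and to 199 to 242 RPM at Rest in Tug1 KD, so the ranges did not overlap. Id1 and Id3 weigh heavily in this sum, with means of 61.1 and 103 RPM in control and 37.5 and 70.7 RPM in Tug1 KD. Pax7 had means of 18.4 and 18.8 RPM. With Tug1 KD at Rest 7 of the 8 tested markers were below 0, and 1 was called lower and 0 higher. After EPS the sum of the 9 was 183 to 286 RPM (EPS 0h) and 125 to 162 RPM (EPS 3h) in control, and 176 to 232 RPM and 121 to 141 RPM in Tug1 KD. Within that list Id1, Id2, Id3 and Msc, inhibitors of myogenic factors, decreased with EPS in each arm at both times, while Myf5, a myogenic factor of myoblasts, increased at EPS 0h by a log2 fold change (log2FC) of 1.31 in control. Of the 8 tested, 2 rose and 4 fell at EPS 0h and 0 rose and 5 fell at EPS 3h in control, and Pax3 was below the filter. The satellite cell marker Pax7 was the fifth that fell at EPS 3h in control, from 16.8 to 20.4 RPM at Rest to 8.29 to 13.4 RPM without overlap (log2FC -0.62, adjusted p = 0.000339), and it fell in Tug1 KD as well (-0.51). Cd34 was not called after EPS. The 5 fibroblast or mesenchymal markers summed to 298 to 393 RPM at Rest, between 309 and 334 RPM at EPS 0h and between 235 and 309 RPM at EPS 3h in control, and to 310 to 382, 261 to 354 and 241 to 304 RPM in Tug1 KD, and Lum was below the filter. In control Col15a1 rose 16.3-fold at EPS 3h while Pdgfra and Pdgfrb fell (log2FC -0.95 and -0.80). Pdgfra was also lower with Tug1 KD in all 3 conditions without overlap (log2FC -0.57, -0.80 and -0.69). The part of these cells in the results below was not tested.

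After centring within groups, the first component of all genes tested held 41.2% of the variance and parted replicates 1 to 3 from 4 to 6, with 2 exceptions. EPS 3h Control replicate 3 lay among replicates 4 to 6 (score 12.8, against -29.8 and -32.0 for replicates 2 and 1), and EPS 3h Tug1-KD replicate 3 lay near the middle. Both also had the highest scores on the second component, 37.1 and 26.7. Counts of genes called at EPS 3h are therefore given with and without these libraries, as are the values of some genes.

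Tug1 itself was lower in Tug1 KD. At Rest it measured 38.5 to 58.2 RPM in control and 23.9 to 33.2 RPM in Tug1 KD, with no overlap (log2FC -0.83 ± 0.171 SE, adjusted p = 0.000915). At EPS 0h and EPS 3h it was lower by a log2FC of -0.57 ± 0.169 (adjusted p = 0.0178) and -0.51 ± 0.168 (adjusted p = 0.0414, or 0.0385 without the 2 libraries that stood apart), and the libraries overlapped. EPS raised Tug1 in both arms, by log2FC 0.75 ± 0.169 at EPS 3h in control. Here and below, log2FC, SE and adjusted p come from edgeR's quasi-likelihood test with Benjamini-Hochberg adjustment over all genes tested, n = 6 per group, and a gene is called increased or decreased at an adjusted p under 0.05.

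Of the 58 genes, 36 were called in at least 1 of the 7 comparisons of groups in the fit without a block. The share of all genes called in at least 1 was not counted, but EPS 3h in control alone called 26.1% higher and 25.9% lower. The other 22 of the 58, among them Top2a, Cdk1, Ccnb2, Ccna2, E2f1 and 5 of the 7 spindle genes, had log2FC between -0.67 and 0.66. With the replicate number as a block, Cdk1, Ccnb2 and Cdkn1c of these were called lower with Tug1 KD at EPS 0h, and Cdt1 at Rest. After EPS in control the block called E2f1 lower at both times and Cdkn1c higher at EPS 0h. Not every gene that the block called after EPS is listed. In the fit without a block EPS moved cell cycle genes in both directions at once, and the genes called with Tug1 KD were lower.

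**Figure D1:**
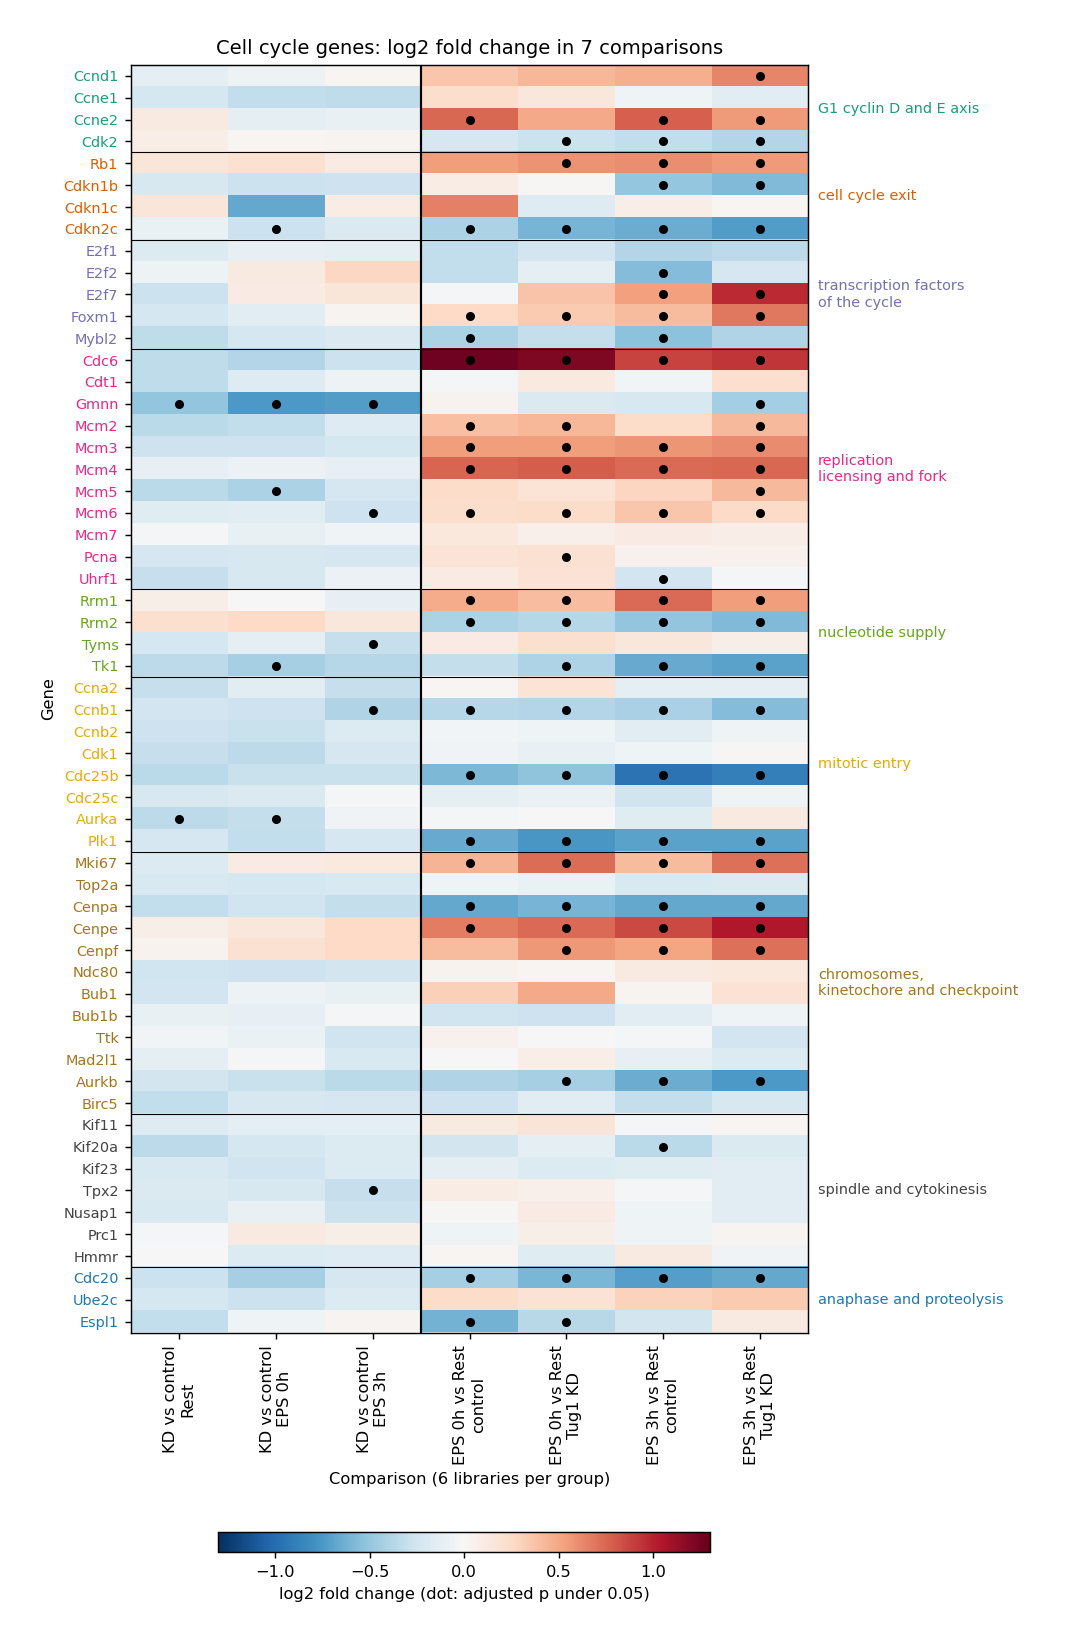
Heat map of the log2 fold change of the 58 cell cycle genes (rows, ordered and coloured by role) in 7 comparisons (columns, 6 libraries per group), with a dot where the adjusted p was under 0.05. The knockdown columns hold mostly weak negative values with Gmnn at -0.51 to -0.75, while the EPS columns hold red replication genes such as Cdc6 beside blue mitotic genes such as Cdc25b and Plk1.

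In control myotubes, EPS was followed by higher Cdc6, Mcm3, Mcm4 and Mcm6, genes of replication origins, and lower Cdc25b, Plk1 and Ccnb1, genes of mitotic entry, at both times, while most members of either role were not called. At EPS 0h, 10 of the 58 genes were higher and 9 lower, against 20.5% and 18.4% of all genes tested (2872 and 2569), so the share of cell cycle genes that moved was near the background in each direction. At EPS 3h, 12 were higher and 15 lower, against 26.1% and 25.9% of all genes. The median log2FC of the 58 genes was 0.03 at EPS 0h and -0.06 at EPS 3h, beside -0.03 and -0.02 over all genes. With scaling by library size alone, which moved the median of all genes to -0.10 and -0.19, the counts were 7 higher and 15 lower at EPS 0h and 7 higher and 26 lower at EPS 3h. Of all genes, 16.6% were higher and 24.9% lower at EPS 0h with this scaling, and 19.1% and 39.6% at EPS 3h. The comparisons at both times use the same Rest libraries, so their values only stand side by side.

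Of the genes higher at EPS 0h 5 of 10 were replication genes, and at EPS 3h 4 of 12 were. Cdc6 (on chr11:98798507-98814766 of GRCm39, plus strand), which loads the MCM helicase onto origins, measured 2.24, 2.44 and 1.96 RPM in replicates 1 to 3 and 2.14, 2.3 and 3.31 RPM in replicates 4 to 6 at Rest in control. At EPS 0h it measured 4.68, 7.37 and 5.98 RPM in replicates 1 to 3 and 5.27, 5.75 and 5.59 RPM in replicates 4 to 6. Every stimulated library was above every resting one in both sets. The rise was 2.4-fold at EPS 0h (log2FC 1.26 ± 0.14, adjusted p = 6.84e-09) and 1.84-fold at EPS 3h (log2FC 0.88 ± 0.141, adjusted p = 2.39e-06).

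Mcm4, a subunit of that helicase, rose from 24.5 ± 3.17 RPM (SD, n = 6) at Rest to 41.5 ± 3.63 RPM at EPS 0h and 41 ± 4.85 RPM at EPS 3h. The libraries did not overlap with Rest at either time, and the log2FC was 0.76 and 0.74. Mcm3, another subunit, rose by 0.54 and 0.57 and Mcm6 by 0.23 and 0.36. Mcm2 rose at EPS 0h (log2FC 0.39, adjusted p = 0.00941), and at EPS 3h its log2FC was 0.24 with an adjusted p of 0.102. The helicase subunits did not move alike, since Mcm5 (0.24 and 0.28) and Mcm7 (0.14 and 0.11) were not called at either time. With the replicate number as a block, Mcm2 and Mcm5 at EPS 3h had adjusted p of 0.0108 and 0.0161. In all, 5 of the 11 replication genes were higher and 0 lower at EPS 0h, and 4 were higher and 1 lower at EPS 3h. The 1 lower gene was Uhrf1, which maintains DNA methylation at the fork (log2FC -0.25, adjusted p = 0.0418), and its adjusted p without the 2 libraries that stood apart was over 0.05.

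The 2 subunits of ribonucleotide reductase, which makes deoxynucleotides, moved apart. Rrm1, the large subunit, measured 98.1 to 115 RPM at Rest, between 126 and 166 RPM at EPS 0h and between 146 and 205 RPM at EPS 3h in control, with log2FC 0.48 ± 0.0882 (adjusted p = 4.1e-05) and 0.74 ± 0.0884 (adjusted p = 9.67e-09). Rrm2, the small subunit, measured 99.9 ± 12.9 RPM at Rest, 75.2 ± 4.56 RPM at EPS 0h and 70.3 ± 13.5 RPM at EPS 3h. Its log2FC was -0.41 ± 0.106 (adjusted p = 0.00227) and -0.51 ± 0.106 (adjusted p = 0.000134). Neither subunit's stimulated libraries overlapped with the resting ones. Tk1, a thymidine kinase, was lower at EPS 3h (log2FC -0.66, adjusted p = 0.000256), and Tyms, thymidylate synthase, had log2FC 0.11 and 0.15 and was not called.

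Among G1 regulators, Ccne2 (cyclin E2) rose at both times (log2FC 0.75 and 0.78), while Ccne1 (cyclin E1) was not called. Cdk2, the kinase that cyclin E activates, was lower at EPS 3h (log2FC -0.32, adjusted p = 0.0114). Ccnd1 (cyclin D1) had log2FC 0.36 and 0.47 and was not called in control. The genes of cell cycle exit differed among themselves. Cdkn2c, which encodes the CDK4/6 inhibitor p18, measured 26.5 to 32.2 RPM at Rest, between 20.8 and 25.3 RPM at EPS 0h and between 16 and 20.6 RPM at EPS 3h in control, with no overlap. Its log2FC was -0.41 ± 0.0806 (adjusted p = 9.81e-05) and -0.64 ± 0.081 (adjusted p = 3.41e-08). Cdkn1b, which encodes p27, was lower at EPS 3h only (log2FC -0.50, adjusted p = 0.00943), when its value without the 2 libraries that stood apart was -0.40. The retinoblastoma gene Rb1 was higher at EPS 3h (log2FC 0.60 ± 0.229, adjusted p = 0.0279, or 0.0143 without those libraries), and at EPS 0h its log2FC was 0.54 with an adjusted p of 0.0603, or 0.00497 with the replicate number as a block. Cdkn1c, which encodes p57, measured 1.02 to 1.7 RPM at Rest and had log2FC 0.66 and 0.09, neither called. With the replicate number as a block, Cdkn1c at EPS 0h had an adjusted p of 0.0289, and Ccnd1 had 0.00438 and 0.000245.

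Of the 8 genes of mitotic entry, the same 3 were lower at both times. Cdc25b, the phosphatase that activates Cdk1 at mitotic entry, measured 43.9, 47.8 and 48.6 RPM in replicates 1 to 3 and 44.3, 40.4 and 39.2 RPM in replicates 4 to 6 at Rest in control. At EPS 3h it measured 24.7, 24.9 and 21 RPM and 22.1, 26 and 16.9 RPM. All stimulated libraries lay below all resting ones, and the level was 0.514 of that at Rest (log2FC -0.96 ± 0.13, adjusted p = 1.24e-07). Plk1 (polo-like kinase 1) fell from 6.62 ± 1.19 RPM to 4.19 ± 1.64 RPM at EPS 0h and 4.05 ± 0.948 RPM at EPS 3h, with log2FC -0.66 ± 0.202 (adjusted p = 0.00923) and -0.70 ± 0.203 (adjusted p = 0.00389). Ccnb1 (cyclin B1) was lower at both times (log2FC -0.37 and -0.42), while its partner Cdk1 had log2FC -0.05 and -0.06 and was not called. None of the 8 was called higher at either time, and 5 were not called.

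Chromosome and checkpoint genes split. Cenpa, the centromeric histone, measured 14.4 to 17.1 RPM at Rest and fell to 7.66 to 12 RPM immediately after EPS (EPS 0h), with no overlap (log2FC -0.67 ± 0.127, adjusted p = 7.24e-05). Its log2FC was -1.01 for replicates 1 to 3 alone and -0.37 for the other 3. Cenpe, the kinetochore motor, moved the other way, with 7.23 to 14.7 RPM at Rest, between 14.6 and 27.2 RPM at EPS 0h and between 14.9 and 34.2 RPM at EPS 3h, with log2FC 0.67 ± 0.213 (adjusted p = 0.012) and 0.86 ± 0.214 (adjusted p = 0.000965). Its libraries overlapped with those at Rest at EPS 0h and not at EPS 3h. Mki67, the proliferation marker Ki-67, rose by log2FC 0.44 (adjusted p = 0.0299) and 0.41 (adjusted p = 0.0351), and its libraries overlapped with those at Rest. Top2a (topoisomerase II alpha), another marker of dividing cells, had log2FC -0.06 and -0.20 and was not called. Aurkb (Aurora B kinase) was lower at EPS 3h (log2FC -0.65). None of the 7 spindle and cytokinesis genes was called at EPS 0h, and Kif20a alone was lower at EPS 3h (log2FC -0.35, adjusted p = 0.0184). Cdc20, which activates the anaphase-promoting complex, was lower at both times (log2FC -0.43 and -0.72). Espl1 (separase), which cleaves cohesin, was lower at EPS 0h (log2FC -0.61 ± 0.142, adjusted p = 0.000765) and stood at -0.24 at EPS 3h, where it was not called (adjusted p = 0.159, or 0.0482 with the block).

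Of the transcription factors, Foxm1 rose at both times (log2FC 0.26 and 0.41) and Mybl2 (B-Myb) fell at both (log2FC -0.41 and -0.53). E2f7, a repressor of E2F targets, was higher at EPS 3h (log2FC 0.53, adjusted p = 0.0378), and E2f2 was lower (log2FC -0.56 ± 0.149, adjusted p = 0.00176). E2f1 had log2FC -0.32 and -0.38 and was not called (adjusted p = 0.219 and 0.115, or 0.0124 and 0.00567 with the block). With the replicate number as a block, 14 genes were higher and 14 lower at EPS 0h, against 24.4% and 25.5% of all genes. Without the 2 libraries that stood apart, 12 were higher and 14 lower at EPS 3h, against 26.4% and 27.4% of all genes.

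**Figure D2:**
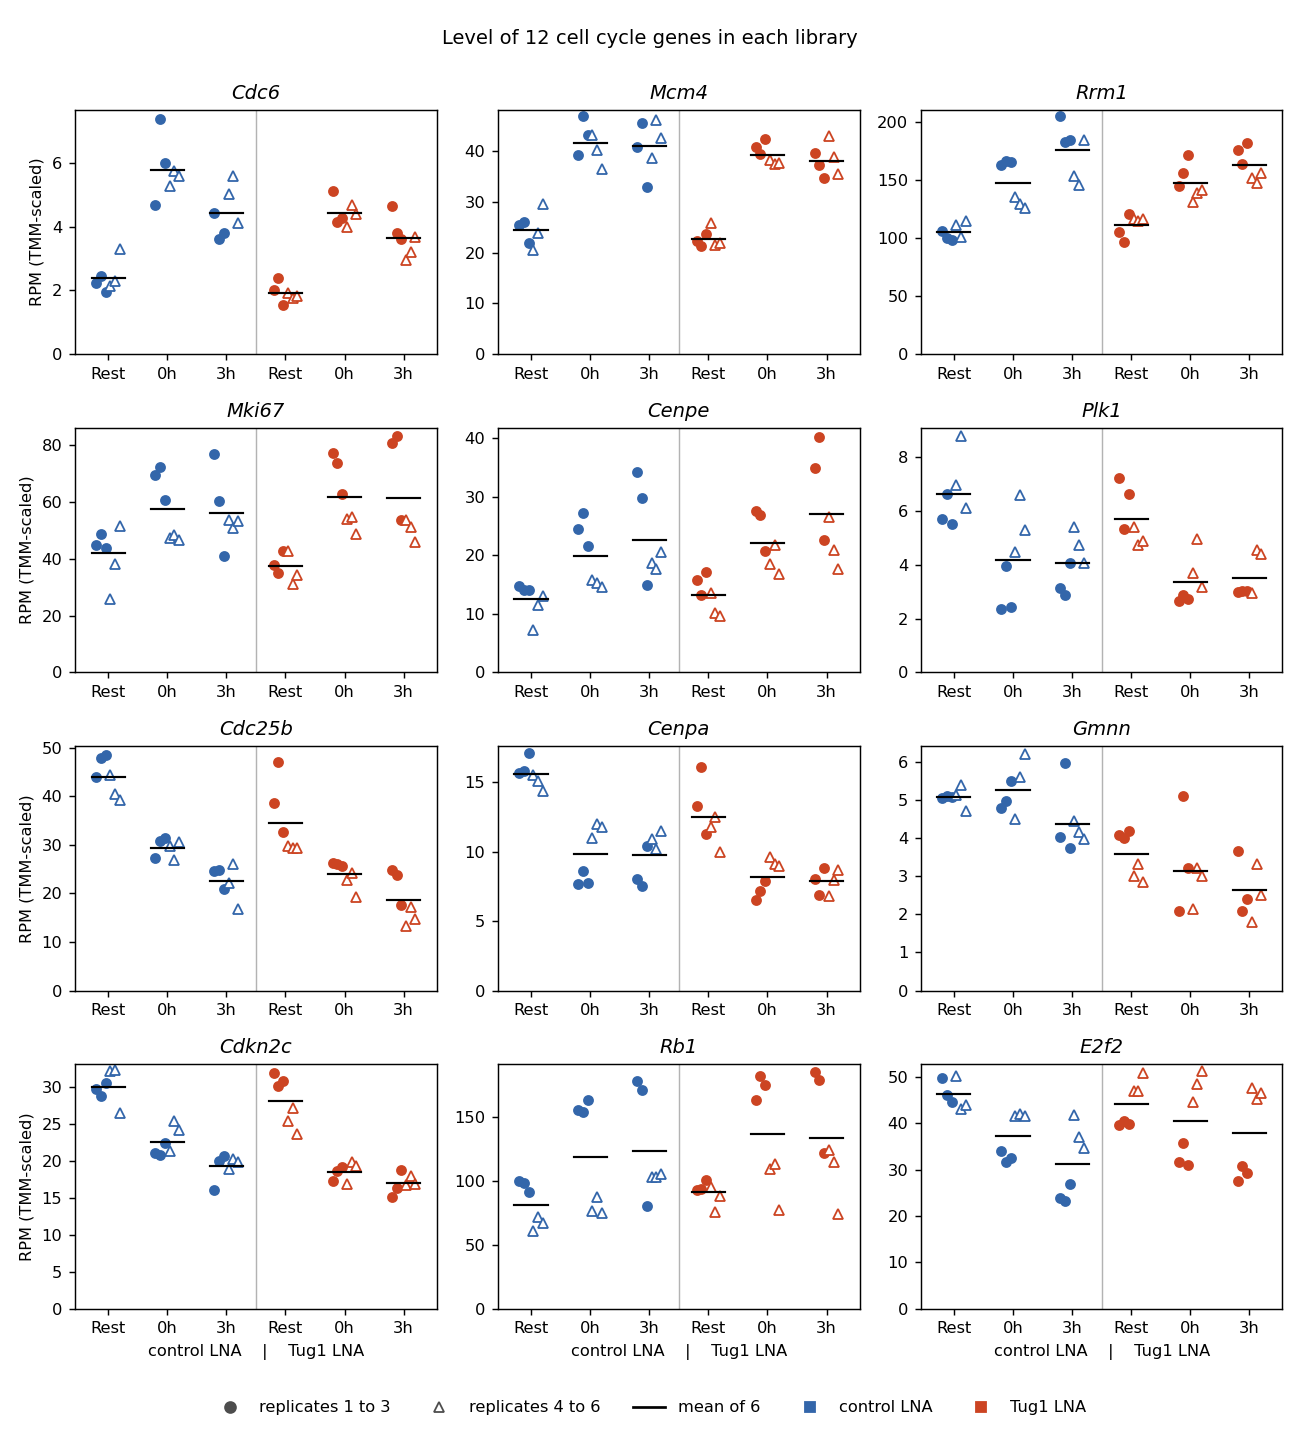
Level of 12 cell cycle genes in each library, in TMM-scaled RPM on axes that start at 0, by LNA and condition (Rest, EPS 0h, EPS 3h), with filled circles for replicates 1 to 3, open triangles for replicates 4 to 6 and a bar for the mean of 6. Cdc6 and Mcm4 stand above their resting libraries after EPS in both arms, and Cdc25b and Cdkn2c stand below them. Rb1 and E2f2 part by replicate set in some groups, but the sets overlap for E2f2 at Rest in control and for Rb1 at Rest in Tug1 KD.

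Tug1 KD myotubes answered EPS with largely the same genes. At EPS 0h, 12 of the 58 genes were higher and 11 lower, against 24.4% and 21.2% of all genes tested. At EPS 3h, 15 were higher and 12 lower, against 26.2% and 25.9%. With scaling by library size alone the counts were 7 and 13 (EPS 0h) and 9 and 22 (EPS 3h). Of all genes, 20.3% were higher and 29.8% lower at EPS 0h with this scaling, and 19.9% and 40.8% at EPS 3h. The 2 arms share no libraries. At EPS 0h, 9 genes were higher in both arms, 90.0% of those higher in control and 75% of those higher in Tug1 KD, and 8 were lower in both, 88.9% and 72.7%. At EPS 3h, 12 were higher in both (100% and 80.0%) and 11 lower in both (73.3% and 91.7%), and 0 genes were called in opposite directions at either time. The shares called in both arms were not counted over all genes. The sign was the same in both arms for 51 of the 58 genes (87.9%) at each time. Of all genes, 88.4% had the same sign at EPS 0h and 90.0% at EPS 3h, so the agreement was near that of all genes.

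Cdc6 measured 1.55 to 2.39 RPM at Rest and 4 to 5.11 RPM at EPS 0h in Tug1 KD, without overlap (log2FC 1.21 ± 0.143, adjusted p = 1.71e-08). Mcm4 rose by 0.79 and Cenpe by 0.74 at EPS 0h, and at EPS 3h Cenpe rose by 1.04 ± 0.214 (adjusted p = 0.000103). E2f7 measured 2.12 to 3.61 RPM at Rest and 3.85 to 9.5 RPM at EPS 3h in Tug1 KD, again without overlap (log2FC 0.97 ± 0.218, adjusted p = 0.000305). Ccnd1 was higher at EPS 3h (log2FC 0.63 ± 0.224, adjusted p = 0.0174), by 0.25 in replicates 1 to 3 and 0.89 in replicates 4 to 6. Mcm5 (log2FC 0.42) was also higher at EPS 3h. Among those that fell, Plk1 was lower by a log2FC of -0.76 at EPS 0h, Cdkn2c by -0.60 and -0.73, Cenpa by -0.60 at EPS 0h, and Cdc25b by -0.89 and Aurkb by -0.75 at EPS 3h. Gmnn (geminin, the inhibitor of the licensing factor Cdt1) was lower at EPS 3h in Tug1 KD (log2FC -0.44, adjusted p = 0.0376, or 0.0501 without the 2 libraries that stood apart). Without the 2 libraries that stood apart, 14 genes were higher and 12 lower at EPS 3h, against 25.0% and 27.5% of all genes.

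The difference between the arms was tested as an interaction. With edgeR, 0 of the 58 genes passed for EPS 0h, against 0.0% of all genes tested, and 0 passed for EPS 3h, against 0.00715% (1 gene of 13995), also without the 2 libraries that stood apart. At an unadjusted p under 0.05 there were 0 and 1, and DESeq2 and limma-voom called 0 at both times. The 1 gene was Aurka (interaction 0.28 ± 0.133, unadjusted p = 0.0404, adjusted p = 1). The SE of the interaction over the 58 genes had a median of 0.202 for EPS 0h and 0.2 for EPS 3h, so a modest difference between arms was not detectable here.

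**Figure D3:**
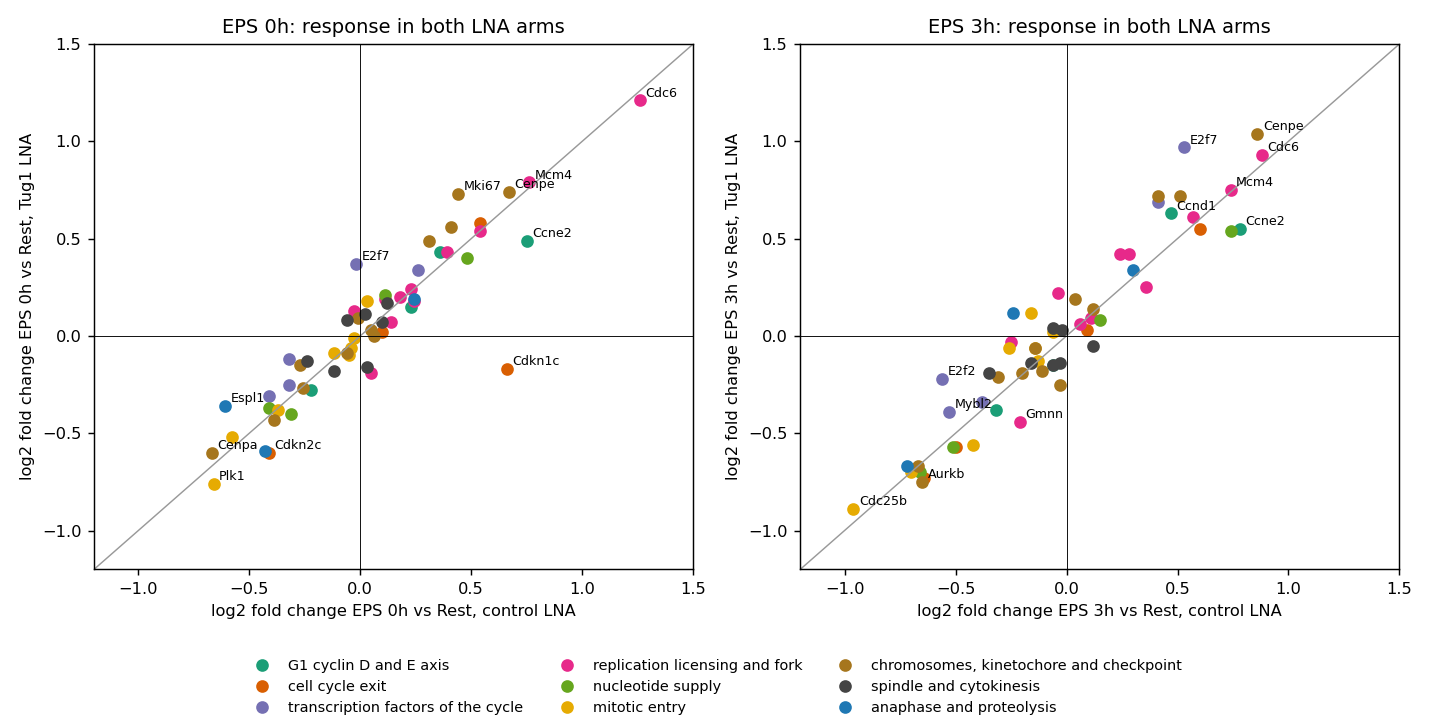
Log2 fold change of the 58 cell cycle genes after EPS in control (x axis) and Tug1 KD (y axis) myotubes at EPS 0h (left) and EPS 3h (right), coloured by role, with the line of equal change. Most points lie along the line from Cdc25b and Plk1 at the lower left to Cdc6 and Cenpe at the upper right, and Cdkn1c at EPS 0h (0.66 in control, -0.17 in Tug1 KD, neither called) lies farthest from it.

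Knockdown of Tug1 lowered few cell cycle genes past the threshold, and how many depended on whether the replicate sets were modelled. Without a term for the sets, at Rest 2 of the 58 genes were lower, against 4.47% of all genes tested, and 0 were higher, against 5.54%. At EPS 0h 5 were lower (background 6.07%) and 0 higher (8.25%), and at EPS 3h 5 were lower (5.11%) and 0 higher (6.38%). At an unadjusted p under 0.05, 1, 1 and 0 genes were higher, and DESeq2 and limma-voom called 0 higher in each condition. With a term for the replicate set, edgeR called 8, 13 and 8 lower, against 7.2%, 10.4% and 8.82% of all genes, and 1 higher in each condition, against 8.75%, 12.3% and 9.83%. The higher gene was Rrm2 at Rest (log2FC 0.21 without the term, adjusted p = 0.0268 with it) and at EPS 0h, and E2f2 at EPS 3h. These 3 comparisons share no libraries with each other, but each uses groups of the EPS comparisons above.

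The distribution of the 58 genes lay lower than that of all genes. The median log2FC was -0.22 at Rest, -0.20 at EPS 0h and -0.18 at EPS 3h, beside -0.03, 0.00 and -0.01 over all genes tested. In all 3 conditions 42 of the 58 genes (72.4%) had a negative log2FC, against 35.7% of all genes, and 5 had a positive one in all 3. In the fit of all libraries, all 11 replication genes and all 8 genes of mitotic entry were below 0 in each condition. The medians were -0.30, -0.21 and -0.22 for the former and -0.28, -0.29 and -0.22 for the latter. The G1 cyclin genes had medians of -0.02, -0.10 and -0.03. In replicates 1 to 3 alone the sign within the former roles was not uniform. There Ccnb1 had log2FC 0.05 at Rest, and Cdc6 and Cdk1 had 0.03 and 0.02 at EPS 3h. The genes belong to a shared programme and are not independent of each other, and most single values missed the threshold.

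In the fit without a block, Gmnn was the only gene of the 58 called lower in all 3 conditions. At Rest it measured 5.06, 5.11 and 5.07 RPM in replicates 1 to 3 and 5.14, 5.4 and 4.7 RPM in replicates 4 to 6 in control, and 4.07, 4.01 and 4.18 RPM and 3, 3.33 and 2.85 RPM in Tug1 KD. All Tug1 KD libraries lay below all control libraries, with log2FC -0.51 ± 0.17 (adjusted p = 0.0498). At EPS 0h its libraries overlapped (4.49 to 6.2 RPM against 2.09 to 5.1 RPM), with log2FC -0.75 ± 0.172 (adjusted p = 0.00206). At EPS 3h it measured 3.74 to 5.97 RPM in control and 1.8 to 3.66 RPM in Tug1 KD, with log2FC -0.73 ± 0.176 (adjusted p = 0.00429, or 0.0104 without the 2 libraries that stood apart). With the replicate number as a block in edgeR, Cdc25b was called lower in all 3 conditions as well. Its log2FC was -0.37, -0.31 and -0.30 at Rest, EPS 0h and EPS 3h (adjusted p = 0.00653, 0.0222 and 0.0336). In replicates 4 to 6 alone Cdc25b was also called lower in each condition.

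Aurka (Aurora A kinase), which matures centrosomes, was lower at Rest (log2FC -0.34 ± 0.0936, adjusted p = 0.0152) and at EPS 0h (-0.31 ± 0.0939, adjusted p = 0.0207). At EPS 3h its log2FC was -0.05 (adjusted p = 0.808). At EPS 0h Tk1 (log2FC -0.43, adjusted p = 0.0413), Mcm5 (-0.41, adjusted p = 0.0238) and Cdkn2c (-0.28 ± 0.0812, adjusted p = 0.0148) were also lower, and Cdkn2c was the one of them whose libraries did not overlap (20.8 to 25.3 RPM against 16.9 to 19.8 RPM). At EPS 3h Ccnb1 (log2FC -0.39, adjusted p = 0.0407), Tyms (-0.30, adjusted p = 0.0331), Tpx2, which nucleates spindle microtubules (-0.30, adjusted p = 0.011), and Mcm6 (-0.27, adjusted p = 0.0479) were lower. Ccnb1 and Mcm6 were not called without the 2 libraries that stood apart, which left 3, against 4.18% of all genes called lower. Mki67 and Top2a, the markers of dividing cells, had log2FC -0.18 and -0.20 at Rest. At EPS 0h and EPS 3h Mki67 had the opposite sign (0.11 and 0.13) and Top2a did not (-0.23 and -0.20), and neither was called in any condition. With the replicate number as a block, 14 genes were lower and 1 higher at EPS 0h, against 11.2% and 13.1% of all genes. At EPS 3h 6 were lower and 1 higher with the block, against 9.75% and 10.8%. The higher gene was Rrm2 at EPS 0h and E2f2 at EPS 3h.

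The effect of Tug1 KD was also read in each replicate set. In replicates 1 to 3 alone, 0 of the 58 genes were called in any of the 3 conditions with edgeR, with 3, 4 and 4 at an unadjusted p under 0.05, where 2.9%, 2.53% and 2.25% of all genes were called lower, and the medians were -0.06, -0.13 and -0.05. In replicates 4 to 6 alone, 18 were lower and 0 higher at Rest, 8 lower and 1 higher at EPS 0h, and 11 lower and 1 higher at EPS 3h (the higher genes were Rrm2 and E2f2, by 0.27 and 0.30), with medians of -0.35, -0.22 and -0.29, and the share of all genes called lower was 6.9%, 6.44% and 5.08%. Genes below 0 at Rest, EPS 0h and EPS 3h numbered 38, 45 and 33 of the 58 in the first set (65.5%, 77.6% and 56.9%). Of all genes, 55.9%, 50.5% and 52.6% were below 0 there. In the other set 52, 48 and 51 of the 58 were below 0, beside 7001, 6854 and 6934 of all 13995 genes. The 18 at Rest were Gmnn, Birc5, Mcm3, Ccne1, Tk1, Mcm5, Cdk1, Kif20a, Cdc20, Aurka, Ccnb1, Cdc25b, Mcm2, Uhrf1, Cdt1, Pcna, Cenpa and Mcm6.

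The difference between the sets in the effect of Tug1 KD was tested at Rest, and was not tested after EPS. With edgeR 0 of the 58 genes passed, against 0.0% of all genes tested, although 52 of the 58 had a more negative log2FC in replicates 4 to 6, against 44.9% of all genes, and 18 had an unadjusted p under 0.05. DESeq2 called 1 (Mcm7) and limma-voom 0. Mcm3 came nearest with edgeR. At Rest it measured 15.9, 15.5 and 17.2 RPM in control and 16.5, 18 and 18.4 RPM in Tug1 KD in replicates 1 to 3. In replicates 4 to 6 it measured 26, 22.3 and 22.5 RPM in control and 16.8, 14.8 and 14.8 RPM in Tug1 KD. The difference between the sets was -0.73 ± 0.135 on the log2 scale (adjusted p = 0.0814).

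**Figure D4:**
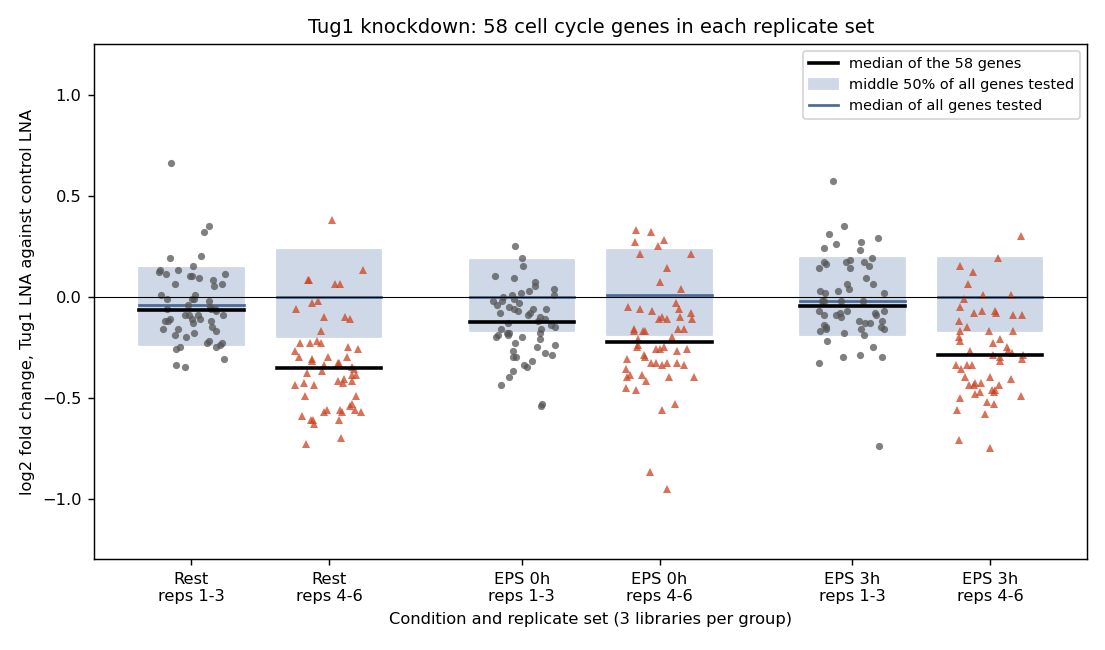
Log2 fold change of the 58 cell cycle genes with Tug1 KD at Rest, EPS 0h and EPS 3h, in replicates 1 to 3 (grey circles) and 4 to 6 (red triangles), 3 libraries per group, with the median of the 58 genes (black) over the interquartile range (shaded) and median (blue) of all genes tested. The medians of the 58 genes sit at -0.06, -0.13 and -0.05 in replicates 1 to 3 and at -0.35, -0.22 and -0.29 in replicates 4 to 6.

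The replicate sets differed in these genes about as often as in all genes. Over all groups, with the groups as covariates, 21 of the 58 genes were lower and 12 higher in replicates 4 to 6, against 30.2% and 28.1% of all genes tested. Without the 2 libraries that stood apart 24 were lower and 12 higher, against 32.3% and 31.1%. Of the 4 genes of the G1 cyclin D and E axis 2 were higher (Ccnd1 and Ccne1) and 2 lower (Ccne2 and Cdk2) in replicates 4 to 6, and of the 5 transcription factors E2f1 and E2f2 were higher. Ccnd1 measured 17.2, 20.5 and 20.3 RPM in replicates 1 to 3 and 29.2, 27.3 and 30.4 RPM in replicates 4 to 6 at Rest in control, and over all groups its log2FC was 0.68 ± 0.0609 (adjusted p = 1.92e-11). E2f1 (log2FC 0.57 ± 0.0699, adjusted p = 1.82e-08) and E2f2 (0.40 ± 0.0527, adjusted p = 7.48e-08) were the called factors, and E2f7 had log2FC -0.23 (adjusted p = 0.101). Also higher were Cdt1 (0.38), Plk1 (0.36) and Mcm2 (0.29).

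Of the 4 genes of cell cycle exit, Cdkn1c and Rb1 were lower in replicates 4 to 6, and Cdkn1b and Cdkn2c were not called. Cdkn1c was lower by a log2FC of -0.99 ± 0.129 (adjusted p = 7.12e-08), and at Rest in Tug1 KD it measured 1.91, 2.69 and 3.05 RPM in replicates 1 to 3 and 0.938, 0.946 and 0.713 RPM in replicates 4 to 6. Rb1 (-0.59 ± 0.0864, adjusted p = 4.8e-07), Cenpf (-0.55 ± 0.084, adjusted p = 1.14e-06), Cenpe (-0.51) and Bub1 (-0.43) were lower too. In all, 9 of the 12 chromosome and checkpoint genes and 4 of the 7 spindle genes were lower and 0 of either were higher. In the control LNA groups alone 21 of the 58 genes were higher and 8 lower, against 24.7% and 20.1% of all genes, and in the Tug1 LNA groups alone 6 were higher and 21 lower, against 19.3% and 17.4%. The myotube markers differed between the sets as well, with 9 of 14 lower and 4 higher.

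The response to EPS in control was compared between the sets. For EPS 0h, 0 of the 58 genes differed with edgeR, against 0.0786% of all genes tested, with 8 at an unadjusted p under 0.05, 2 by DESeq2 (Cenpa and Rrm1) and 0 by limma-voom. For EPS 3h, 1 of the 58 differed, against 0.336%, with 4 by DESeq2 (E2f2, Mcm3, Mcm7 and Rrm1) and 1 by limma-voom. It was E2f2, which measured 49.8, 46.1 and 44.6 RPM at Rest and 24, 23.3 and 27 RPM at EPS 3h in replicates 1 to 3, against 50.3, 43.2 and 43.9 RPM and 41.9, 37.1 and 34.6 RPM in replicates 4 to 6. Its log2FC was -0.90 and -0.27 in the respective sets, a difference of 0.65 ± 0.123 (adjusted p = 0.0139). Without the 2 libraries that stood apart 3 genes differed. In Tug1 KD the same gene had log2FC -0.22 at EPS 3h and was not called.

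A wider list of 110 other genes of the cycle was read in the same comparisons, of which 108 were tested. With EPS in control 21 were higher and 10 lower at EPS 0h, and 25 were higher and 17 lower at EPS 3h, beside the 20.5% and 18.4% (EPS 0h) and 26.1% and 25.9% (EPS 3h) of all genes given above. Chek1, a checkpoint kinase gene, rose by log2FC 1.06 and 1.44. E2f8, a repressor related to E2f7, fell by a log2FC of -0.98 and -1.32, and Incenp, a partner of Aurora B, by -0.75 and -0.91. In Tug1 KD, 23 were higher and 15 lower at EPS 0h and 22 higher and 22 lower at EPS 3h, beside 24.4% and 21.2%, and 26.2% and 25.9%, of all genes. Chek1 rose there by 1.38 and 1.66. E2f8 fell by -1.09 and -1.47, Pttg1 (securin) by -0.66 at EPS 0h, and Kif2c, a microtubule depolymerase, by -0.83 at EPS 3h.

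With Tug1 KD, 3 of the 108 were higher and 5 lower at Rest, 2 higher and 9 lower at EPS 0h, and 2 higher and 8 lower at EPS 3h, with medians of -0.13, -0.11 and -0.13. Of all genes tested 5.54%, 8.25% and 6.38% were higher and 4.47%, 6.07% and 5.11% lower. At Rest Wee1, the kinase that restrains Cdk1 (log2FC -0.55, adjusted p = 0.00646), and E2f5 (-0.38) were lower. Mad1l1, a checkpoint protein gene (0.38), and Tfdp2, an E2F partner (0.38), were higher. At EPS 0h Cdca5, the cohesion factor sororin (-0.61), and Chaf1b, a chromatin assembly factor (-0.59), were lower, and Orc2 (0.27) and Tfdp1 (0.25) were higher. At EPS 3h Chaf1b (-0.54) and Prim1, a primase subunit (-0.53), were lower, while Mad1l1 (0.28) and Tfdp1 (0.19) were higher.

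The genes that rose and fell differed in a feature that the choice of genes did not use, the span of the annotated gene. The 58 genes had a median span of 15.8 kb, beside 24.4 kb over all genes tested with a span (99.6%). At EPS 3h in control the 12 that rose had a median span of 27.5 kb (13.6 to 142 kb) and the 15 that fell a median of 9.19 kb (4.51 to 30.2 kb). At EPS 0h the medians were 18 kb and 10.5 kb. In Tug1 KD at EPS 3h the median span was 20.1 kb for genes that rose and 8.13 kb for those that fell. It was 20.2 kb for genes not called there, and 15.4 kb for those not called at EPS 3h in control. Between the replicate sets the order was the other way, with 10.5 kb for the 12 higher and 28.8 kb for the 21 lower in replicates 4 to 6. All genes tested moved with span too. At EPS 3h in control in 5 equal bins of span, the median log2FC was -0.11 in the bin of the shortest genes and 0.17 in that of the longest, and with Tug1 KD at EPS 0h these medians were -0.13 and 0.22. At EPS 3h in control the medians of the 58 genes, from the shortest bin upwards, were -0.32, -0.11, -0.06, -0.03 and 0.60. The last bin held 1 of them, Rb1. The part of span in the results above was not tested.

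**Figure D5:**
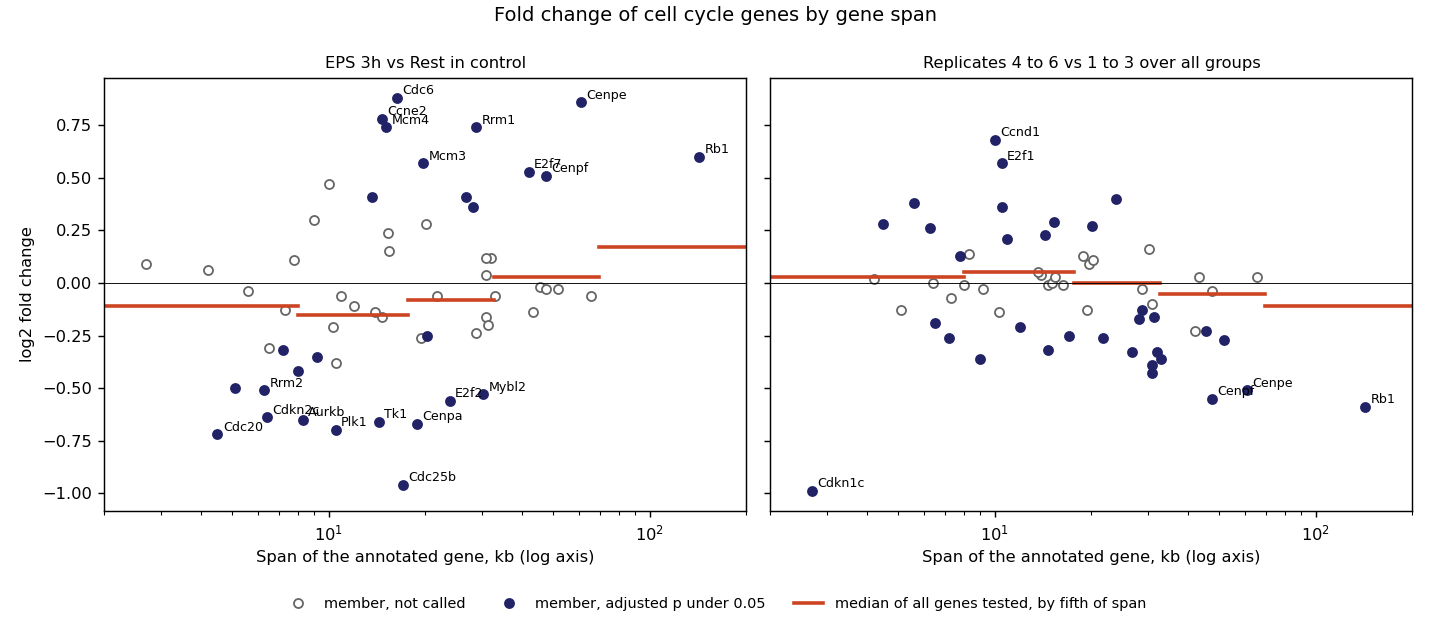
Log2 fold change of the 58 cell cycle genes against the span of the annotated gene in kb (log axis), for EPS 3h against Rest in control (left) and for replicates 4 to 6 against 1 to 3 (right), filled where the adjusted p was under 0.05, with red lines for the median of all genes tested in each of 5 bins of span. At EPS 3h Rb1 and Cenpe lie above 0 and Cdc20 below it, and between the sets Rb1 and Cenpe lie below 0.

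Promoters were read for the genes that moved most after EPS, because E2F and the complex that represses mitotic genes in resting cells act through short motifs there. RefSeq promoters (GRCm38.p6) matched 46 of the 58 genes, and the 250 bases before the start were searched on both strands for the E2F motif TTTNNCGC with each N being C or G, for the CCAAT box, and for the CHR element TTTGAA or TTCGAA. Matches of different motifs may overlap. The E2F motif was in 8 of the 46 (17.4%), against 1.86% of all 32851 promoters in the table. The CCAAT box was in 34 (73.9%, against 33.8%) and the CHR in 13 (28.3%, against 17.1%). A gene of the 46 counted if any of its promoters held the motif, while the background counts single promoters of all genes, expressed or not. The shares are therefore not of like units.

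The E2F motif lay mostly with replication genes, 5 of 9, and in 0 of 11 chromosome and checkpoint genes, while the CCAAT box was in 6 of 6 genes of mitotic entry and the CHR and CCAAT box were both in 3 of 3 anaphase genes. Among genes with a promoter that rose at EPS 3h in control 3 of 8 held the E2F motif and 1 of 8 the CHR, and among those that fell 2 of 13 held the E2F motif and 2 of 13 the CHR. Among those not called at EPS 3h 3 of 25 held the E2F motif and 10 of 25 the CHR. A match describes the letters and not the binding of a factor. Shown are the last 200 bases before the start for the 3 matched genes with the largest rise (Cdc6, Cenpe, Rrm1) and the 3 with the largest fall (Cdc25b, Cdc20, Plk1) at EPS 3h in control, 5′ to 3′ on the gene's strand, with motif matches in capitals.
Cdc6, chr11:98907951-98908150, plus strand: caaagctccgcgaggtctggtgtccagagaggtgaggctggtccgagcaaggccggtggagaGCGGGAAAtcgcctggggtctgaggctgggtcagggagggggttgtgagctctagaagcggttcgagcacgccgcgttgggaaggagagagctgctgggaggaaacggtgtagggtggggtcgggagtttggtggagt
Cenpe, chr3:135212363-135212562, plus strand: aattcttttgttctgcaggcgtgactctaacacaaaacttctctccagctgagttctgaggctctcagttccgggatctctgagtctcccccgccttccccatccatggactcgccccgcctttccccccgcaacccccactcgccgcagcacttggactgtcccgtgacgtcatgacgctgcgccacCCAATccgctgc
Rrm1, chr7:102441495-102441694, plus strand: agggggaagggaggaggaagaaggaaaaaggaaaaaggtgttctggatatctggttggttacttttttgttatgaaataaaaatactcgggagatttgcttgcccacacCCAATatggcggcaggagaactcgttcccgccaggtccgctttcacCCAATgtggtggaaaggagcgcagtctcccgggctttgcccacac
Cdc25b, chr2:131186748-131186947, plus strand: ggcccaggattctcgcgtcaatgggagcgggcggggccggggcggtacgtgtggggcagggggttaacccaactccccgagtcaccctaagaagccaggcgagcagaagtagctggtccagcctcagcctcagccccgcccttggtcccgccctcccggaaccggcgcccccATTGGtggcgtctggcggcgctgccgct
Cdc20, chr4:118437344-118437543, minus strand: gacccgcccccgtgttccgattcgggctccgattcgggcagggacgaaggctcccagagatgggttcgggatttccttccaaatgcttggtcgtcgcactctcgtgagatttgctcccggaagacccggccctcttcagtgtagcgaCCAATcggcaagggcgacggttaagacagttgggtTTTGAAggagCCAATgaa
Plk1, chr7:122159235-122159434, plus strand: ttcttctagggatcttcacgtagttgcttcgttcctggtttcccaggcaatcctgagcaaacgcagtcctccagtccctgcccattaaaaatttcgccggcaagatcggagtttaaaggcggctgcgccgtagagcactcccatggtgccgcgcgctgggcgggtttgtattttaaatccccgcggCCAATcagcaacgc
In these stretches Cdc6 holds 1 E2F match and no CCAAT box, Rrm1 holds 2 CCAAT boxes, and Cenpe, Cdc25b and Plk1 hold 1 each. Cdc20 holds 2 CCAAT boxes with a CHR between them.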

How the data were processed

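RNA-seq of C2C12 myotubes was analysed in 36 libraries, 6 in each of 6 groups. The authors sequenced stranded poly-A libraries with spike-ins and deposited raw read counts for each gene, whole numbers with no normalisation. The labels' processing notes name FastQC 0.11.7, fastp 0.14.1, STAR 2.5 and GRCm39. The counter and its strand setting are not given in the sources used here. The 36 per-library files hold the same values as the columns of the deposited matrix. Library totals ranged from 17005079 to 24181167 counts (median 19439667.5). Genes without a name (1492 of 55416) held 0.0327% of counts and were kept, under the same filter as the rest. No separate step was taken for the spike-ins.

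Genes with at least 1 CPM in at least 12 libraries (13995) were fitted with edgeR 4.0.16 (R 4.3.3, TMM, robust quasi-likelihood) over all 6 groups without a block, with adjusted p under 0.05 as the call. Interactions, replicate sets and their differences were contrasts of the same kind. The test was checked on simulated counts with independent libraries and no difference between replicate sets. That check does not cover the split between the sets seen here. No pair of libraries in a group agreed within sampling noise. Replicates are wells of 1 cell line, so p-values measure the spread between wells, which may be technical.

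Same-numbered libraries deviated together (every correlation over 0.1) for Tug1 KD at EPS 0h and EPS 3h, both EPS comparisons in control, and EPS 0h in Tug1 KD. Same-numbered libraries did not all do so for Tug1 KD at Rest (lowest -0.096) or EPS 3h in Tug1 KD (lowest 0.072). These deviations still hold the split between the replicate sets, and libraries of different numbers were not compared. The correlations therefore cannot show that the numbers pair libraries.

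The 58 genes, their roles, the marker lists and the wider list were chosen with earlier results of these data known. The text names Tug1, 11 anchors, the up to 3 called genes with the largest rise and fall per comparison, up to 2 of the wider list, and markers, and 1 gene of the wider list is not reported here. Others were chosen after their values were seen. Alternatives were DESeq2 1.42.0, limma-voom (limma 3.58.1), library size scaling, no filter, the replicate block, a replicate set term, the compared groups alone and each set alone. Leaving out 2 libraries was added after seeing the data. Lin54 was not analysed here, and Fen1 was below the filter.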

Additional observations from a re-analysis of the deposited data

Results flagged for a closer look

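Single libraries of the 30 named genes were compared with the other 5 of their group by the gap to the nearest library over the range (critical value 0.625). Of 180 groups, 7 held a library past it, and chance alone flags about 1 in 20 groups. Aurkb was high in replicate 5 of Tug1 KD at EPS 0h (6.24 RPM) and at EPS 3h (5.86 RPM). Cdc6 was high (3.31 RPM) and Cdkn1c low (1.02 RPM) in replicate 6 of control at Rest. In control at EPS 3h, Cdkn2c was low in replicate 1 (16.0 RPM), Gmnn high in replicate 2 (5.97 RPM) and Top2a low in replicate 3 (31.4 RPM), the last being a library that stood apart on all genes.

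The change in E2f2 after EPS 3h in control differed between replicates 1 to 3 and 4 to 6 by 0.65 on the log2 scale, by the test of the difference with edgeR.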

How the results depend on the processing

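Counts of the 58 genes called moved by over 1.5 times as follows. With DESeq2, genes lower with Tug1 KD were 5 at Rest and 11 at EPS 0h (edgeR 2 and 5), and the sets differed in 2 (EPS 0h), 4 (EPS 3h) and 1 (Tug1 KD at Rest). With limma-voom 4 were lower with Tug1 KD at Rest. With library size scaling, 4 and 11 were lower with Tug1 KD at Rest and EPS 0h, against 4.95% and 8.0% of all genes. After EPS in control 15 were lower at EPS 0h, and 7 were higher and 26 lower at EPS 3h. In Tug1 KD 7 were higher at EPS 0h, and 9 were higher and 22 lower at EPS 3h. Without the filter on low counts, which added genes to the adjustment, 0, 1 and 1 were lower with Tug1 KD at Rest, EPS 0h and EPS 3h, 7 and 9 were higher after EPS in Tug1 KD, and 0 differed between sets at EPS 3h. With the compared groups alone 1 was lower with Tug1 KD at EPS 3h. With a replicate set term, 8, 13 and 8 were lower and 1, 1 and 1 higher with Tug1 KD, and 14 were lower at EPS 0h in control (24.3% of all genes). In replicates 1 to 3 alone 0, 0 and 0 were lower with Tug1 KD. In replicates 4 to 6 alone 18, 8 and 11 were lower, 1 was higher at EPS 0h and 1 at EPS 3h, and 3 were lower at EPS 0h in Tug1 KD. Between sets, 21 were higher and 8 lower in the control LNA groups and 6 higher in the Tug1 LNA groups. Without the 2 EPS 3h replicate 3 libraries 3 were lower with Tug1 KD, and 3 differed between sets. Apart from the smaller fits and the added genes, the cause was not tested.

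With the replicate block, 9 were lower and 1 higher with Tug1 KD at Rest, against 8.12% and 9.1% of all genes. Same-numbered libraries did not all deviate together there. With Tug1 KD at EPS 0h 14 were lower and 1 higher. At EPS 3h 1 was higher, and 14 were lower at EPS 0h in control.

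Values changed sign for Ccnb1 with Tug1 KD at Rest (0.05) and for Cdc6 (0.03), Cdk1 (0.02) and Top2a (0.03) at EPS 3h, in replicates 1 to 3 alone. In replicates 4 to 6 alone Cdk1 (0.18) and E2f2 (-0.0) did so at EPS 0h in Tug1 KD. Between sets Aurkb (-0.04), Cdk1 (-0.13) and Tyms (-0.09) did so in the Tug1 LNA groups and Top2a (0.01) in the control LNA groups. Of the other values compared, 1170 were classed as keeping direction and side of the threshold. Another 137 passed it and 108 no longer did. The changes of sign listed are not all. With Tug1 KD at Rest Cdkn1c had a higher mean over 6 libraries (1.71 RPM, control 1.51 RPM). In replicates 4 to 6 it was lower (0.713 to 0.946 RPM, control 1.02 to 1.64 RPM). E2f2 had a lower mean there (44.1 RPM, control 46.3 RPM). Its replicates 4 to 6 measured 47.0, 47.0 and 50.8 RPM (control 50.3, 43.2 and 43.9 RPM). Medians kept within the spread of replicates in 96 cases and moved in 9.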
